A study of Mus musculus with 3 samples.

Results

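Macrophages of the mouse liver that carried Gpnmb transcripts were examined at 4 days in mice injured with acetaminophen that had received engineered mesenchymal stromal cells, native mesenchymal stromal cells or buffer. A barcode was taken as a member when it had at least 10 UMIs (unique molecular identifiers, counted transcript molecules) of C1qa, C1qb and C1qc together and at least 3 UMIs of Gpnmb. It also had to have no Clec4f or fewer than 4 UMIs over the Kupffer cell genes Clec4f, Timd4, Cd5l and Vsig4, at most 2 UMIs of Stab2, and none of Cd79a and Cd3e. Of the 30684 cells kept in the series, 2853 met this rule. They were 304 cells of the engineered MSC library, 855 of the native MSC library and 1694 of the PBS library. Members were thus chosen by the levels of these genes, which are therefore given as a description. The label of lipid-associated macrophage rests on RNA alone, and lipid content was not measured.

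Each group was 1 mouse and 1 library. All 3 mice had received 500 mg/kg of acetaminophen (APAP), which injures hepatocytes, and an infusion 6 h later. The engineered MSC group received mesenchymal stromal cells (MSCs) that carried bispecific polyvalent peptides, the native MSC group received MSCs without them, and the PBS group received phosphate-buffered saline. No uninjured liver was analysed here, and the labels give no strain, age or sex. Animal and treatment therefore cannot be told apart, no test between groups was possible, and the intervals below are 95% intervals for counting error within these libraries.

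Lipid-associated macrophages are a state that macrophages enter where they take up lipid and dead cells, first described in obese adipose tissue and also found in injured and fatty liver. TREM2, a receptor for lipids and lipoproteins, drives much of the program, and GPNMB is a transmembrane glycoprotein of lysosomes and melanosomes that marks the same cells. SPP1 (osteopontin) is a secreted matrix and adhesion protein, LPL hydrolyses triglycerides of lipoproteins, ATP6V0D2 is a subunit of the lysosomal proton pump that is high in osteoclasts, and MMP12 is the macrophage elastase. In liver such cells can arise from blood monocytes that enter after the resident Kupffer cells are lost.

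Members were deeply measured cells. Their median depth was 16950.0 UMIs in the engineered MSC, 15474 in the native MSC and 13364 in the PBS library, and together they held 6041009, 15615333 and 25696716 UMIs in that order of libraries. Free RNA was gauged in B cells, which should lack Gpnmb. Of these, 3.67% in the engineered MSC, 8.13% in the native MSC and 25.4% in the PBS library had at least 1 Gpnmb UMI, but only 2 of 1009, 3 of 246 and 6 of 334 reached the 3 UMIs that the rule asked for. The B cells were shallower, with medians of 3150.0, 2798 and 2519 UMIs in the same libraries. Pairs of libraries shared between 39 and 46 barcodes, and no member barcode was shared. By doublet score, 39 engineered MSC, 121 native MSC and 137 PBS members were among the barcodes that a doublet filter would remove, which is 12.8%, 14.2% and 8.09% of members.

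The label held most clearly in the PBS library, where each given marker had a UMI in most members. With each member thinned to 5000 UMIs, Trem2 was detected in 93.5% of engineered MSC, 96.9% of native MSC and 94.6% of PBS members, and Lpl in 85.9% of engineered MSC, 81.6% of native MSC and 98.4% of PBS members. Spp1 was detected in 74.7% of engineered MSC, 90.9% of native MSC and 89.1% of PBS members. Mmp12 was found in 10.5% of engineered MSC, 8.11% of native MSC and 68.3% of PBS members, and Atp6v0d2 in 10.1% of engineered MSC, 9.43% of native MSC and 44.8% of PBS members. Without thinning, the shares in the same order were 15.5%, 15.1% and 79.6% for Mmp12 and 17.4%, 16.3% and 58.6% for Atp6v0d2. In both MSC libraries the members therefore carried Gpnmb, Trem2, Spp1 and Lpl, while Mmp12 and Atp6v0d2 marked a minority. Of the osteoclast markers, Calcr had 0 UMIs in members of every library, and Ocstamp had 0, 7 and 37 UMIs over all engineered MSC, native MSC and PBS members. Nfatc1, a transcription factor of osteoclasts also made by lymphocytes, stood at 29.1, 29.7 and 25.6 CPM (UMIs of the gene scaled to a common total of UMIs), below the B cells of each library, and Ctsk, a collagen-degrading cathepsin, at 13.6, 8.07 and 17.1 CPM in the same order.

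Members were scarcest in the liver given engineered MSCs. They made up 3.03% (2.70 to 3.38%) of kept cells there, against 8.38% (7.85 to 8.93%) in the native MSC liver and 16.2% (15.5 to 17%) in the PBS liver. The ratio of these shares was 0.186 (0.166 to 0.210) for engineered MSC over PBS, 0.516 (0.478 to 0.558) for native MSC over PBS and 0.361 (0.318 to 0.410) for engineered over native MSC. A different order appeared when the base was the C1q-positive macrophages outside the Kupffer gate, so that only macrophages were compared with one another. Members were then 60.4% (56 to 64.7%) of such cells in the engineered MSC liver, 55.1% (52.5 to 57.5%) in the native MSC liver and 72% (70.2 to 73.8%) in the PBS liver. The corresponding ratios were 0.839 (0.778 to 0.905), 0.764 (0.726 to 0.805) and 1.10 (1.01 to 1.19). With Kupffer-gate cells added to that base, members were 40.2% (36.6 to 43.7%) in the engineered MSC liver. They were then 53.4% (50.9 to 55.9%) in the native MSC and 56.1% (54.3 to 57.9%) in the PBS liver. The engineered MSC library was lowest on that base, and the native MSC over PBS ratio was 0.952 (0.900 to 1.01). The ratios over PBS lay further from 1 for kept cells than among macrophages, and the C1q-positive macrophages outside the Kupffer gate were themselves fewer, with 503 engineered MSC, 1553 native MSC and 2352 PBS cells.

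Thinning moved the shares of kept cells and of macrophages outside the Kupffer gate. When every kept cell was thinned to 2000 UMIs and shallower cells were left out, members were 1.37% (1.12 to 1.65%) of kept cells in the engineered MSC, 2.33% (2.03 to 2.66%) in the native MSC and 12% (11.3 to 12.7%) in the PBS library. Among macrophages outside the Kupffer gate, thinning gave 28.4% (23.9 to 33.2%), 20.9% (18.4 to 23.6%) and 53% (50.8 to 55.3%) in that order. PBS remained highest by both bases, and the engineered MSC library remained lowest of kept cells.

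The Gpnmb minimum cut through a continuous range. With 2 Gpnmb UMIs, just outside the rule, there were 30 engineered MSC, 109 native MSC and 115 PBS cells. With 3, just inside it, there were 18, 60 and 86 cells in the same order. Trem2 stood at 445, 562 and 459 CPM just outside and at 587, 711 and 624 CPM just inside. Lpl stood at 624, 471 and 1326 CPM just outside and at 481, 476 and 1400.2 CPM just inside. The Kupffer clause mattered mainly in PBS: of the cells that passed the C1q and Gpnmb minimums, 28 engineered MSC, 12 native MSC and 417 PBS cells fell in the Kupffer gate, which takes cells with Clec4f and at least 4 UMIs over its 4 genes.

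**Figure D1:**
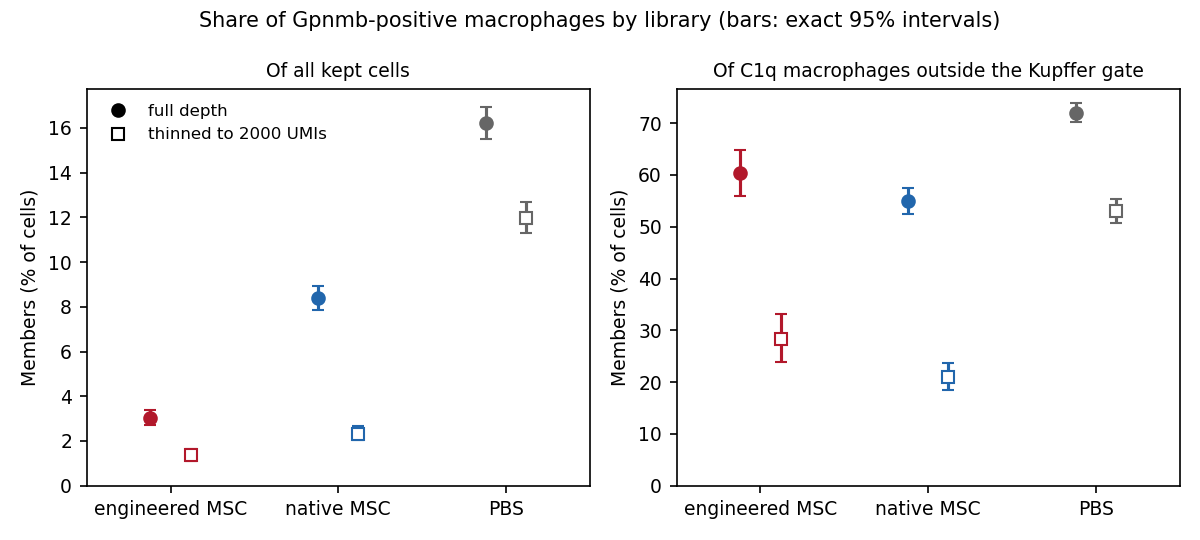
Share of members by library, as a percent of kept cells and as a percent of C1q-positive macrophages outside the Kupffer gate, with exact binomial 95% intervals that cover counting error in 1 library per group. Of kept cells the engineered MSC library is lowest and PBS highest, while of macrophages outside the Kupffer gate the native MSC library is lowest.

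Within members, levels are given as CPM of all member UMIs of a library. A gene was counted as past 2-fold in a comparison when it had at least 20 UMIs in the pair. By this count, 11.3% of the 13663 genes measured were higher and 4.91% lower in engineered MSC than in PBS members. For native MSC over PBS the shares were 7.5% higher and 6.73% lower of 14065 genes, and for engineered over native MSC 8.31% higher and 2.51% lower of 13053. The median log2 ratio of all genes was 0.06, -0.01 and 0.07 in these comparisons. For engineered MSC over PBS the balance turned after thinning to 2000 UMIs with members chosen anew, with 506 genes higher and 1122 lower. Counts of list genes past 2-fold are to be read beside these shares of all genes. Every ratio of CPM below rests on 1 library per group.

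The 6 given markers did not move together. Mmp12 was at 95.2 CPM in engineered MSC, 71 CPM in native MSC and 1092 CPM in PBS members, which is 11.5-fold lower (10.6 to 12.5) in engineered MSC and 15.4-fold lower (14.5 to 16.4) in native MSC than in PBS members. Atp6v0d2 was at 31.1 CPM in engineered MSC, 56.5 CPM in native MSC and 246 CPM in PBS members, 7.92-fold lower (6.85 to 9.20) and 4.36-fold lower (4.06 to 4.68) in the same comparisons. Lpl, the lipoprotein lipase, was at 1278 CPM in engineered MSC, 1119.8 CPM in native MSC and 3761 CPM in PBS members, 2.94-fold lower (2.88 to 3.01) and 3.36-fold lower (3.31 to 3.41). Spp1 ran the other way, at 5005 CPM in engineered MSC, 10001 CPM in native MSC and 3243 CPM in PBS members. It was 1.54-fold higher (1.52 to 1.56) in engineered MSC and 3.08-fold higher (3.06 to 3.11) in native MSC than in PBS members. After thinning to 2000 UMIs with members chosen anew, the log2 ratio of Atp6v0d2 was -1.62 for engineered MSC over PBS and 0.85 for engineered over native MSC. In all members these were -2.98 and -0.86. The turned order of the MSC libraries rests on 109 engineered MSC and 207 native MSC members of 2000 UMIs each, without an interval. In all members binned by Gpnmb below 1000, from 1000 to 3000 and at 3000 CPM or more, the order did not turn. Atp6v0d2 was there at 6.49, 15.3 and 105 CPM in engineered MSC and 13.4, 40.3 and 286 CPM in native MSC members. Trem2 was close between libraries, at 752 CPM in engineered MSC, 886 CPM in native MSC and 895 CPM in PBS members. Gpnmb itself, on which members were chosen, was at 1822 CPM in engineered MSC, 1399 CPM in native MSC and 2788 CPM in PBS members.

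Cell by cell, the same contrast held at the middle of the distribution for Mmp12 and Lpl, but for Spp1 only in native MSC over PBS. The median member had 0, 0 and 363 CPM of Mmp12 in the engineered MSC, native MSC and PBS libraries, and 650.5, 646 and 3136 CPM of Lpl. For Spp1 the medians were 716, 1980.3 and 1267 CPM, so the median engineered MSC member was below the median PBS member although its library's summed level was above. B cells held 3.09, 0 and 96.7 CPM of Mmp12 and 72, 255 and 196 CPM of Spp1 in the engineered MSC, native MSC and PBS libraries.

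**Figure D2:**
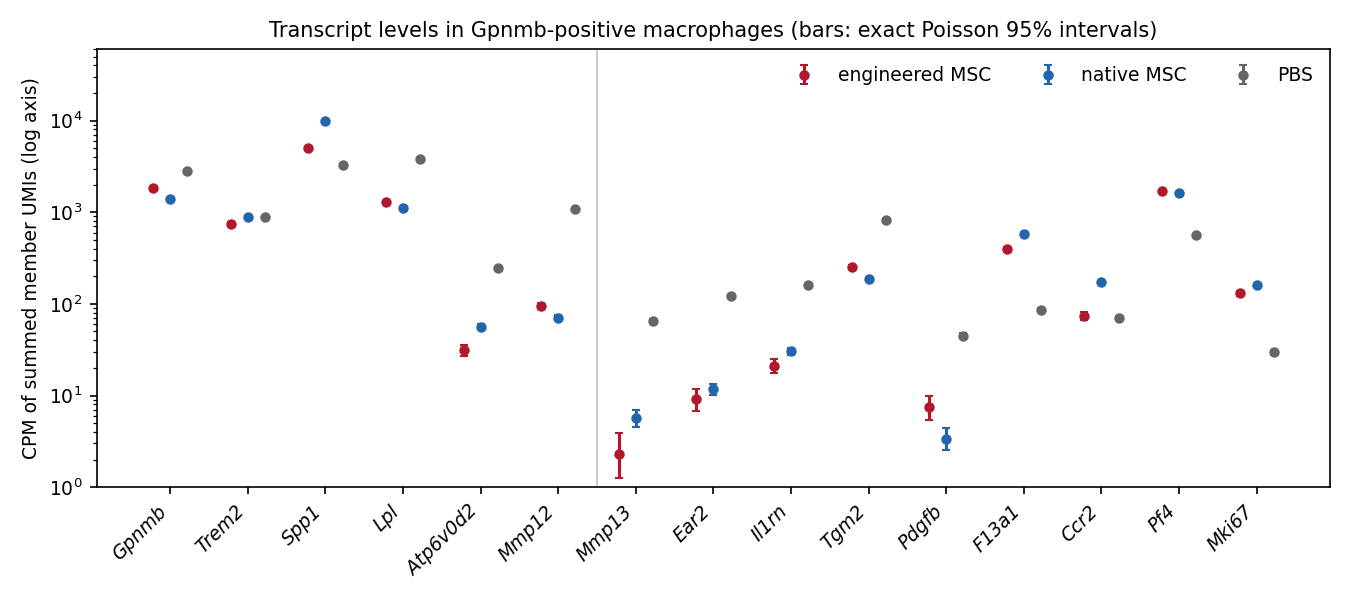
Levels of named genes in the members of each library, in CPM on a log axis, with exact Poisson 95% intervals for counting error. Mmp12, Mmp13, Atp6v0d2, Lpl, Ear2 and Il1rn are highest in PBS members, Spp1 is highest in native MSC members, and Trem2 is close between libraries.

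Several matrix proteases were lower in members of both MSC livers. Of the 13 measured genes of matrix proteases and their inhibitors, 5 were past 2-fold lower and 2 past 2-fold higher in engineered MSC over PBS, with a median log2 ratio of -0.65. In native MSC over PBS, 7 were lower and 2 higher, with a median of -1.08. Mmp13, an interstitial collagenase of mice, was at 2.32 CPM in engineered MSC, 5.70 CPM in native MSC and 64.5 CPM in PBS members, 27.8-fold lower (16.5 to 51) in engineered MSC and 11.3-fold lower (9.14 to 14.2) in native MSC. Mmp14, a membrane-bound protease that activates other metalloproteases, was at 19.7 CPM in engineered MSC, 8.90 CPM in native MSC and 60.5 CPM in PBS members. Plau, the urokinase plasminogen activator, was at 25.3 CPM in engineered MSC, 28.2 CPM in native MSC and 70.8 CPM in PBS members. Mmp9, a gelatinase also abundant in neutrophils, went against the others at 13.2 CPM in engineered MSC, 34.4 CPM in native MSC and 3.93 CPM in PBS members. The neutrophil transcript S100a8 stood at 15.9, 306 and 22 CPM in the same members and at 20.7, 705 and 46.1 CPM in B cells, and its part in the Mmp9 values was not tested.

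Start-site regions of Gpnmb, Mmp12 and Mmp13 are shown. Gpnmb chose the cells, and Mmp12 and Mmp13 were among the genes with the largest ratios on the lower side of both MSC libraries over PBS. Ear2 was among those genes too and was not searched. A region was shown only where it held the motif marked below, so its presence in all the regions shown is no result. The sequences are RefSeq promoters of build GRCm38.p6, with 250 bases before and 50 after the start site. Capitals mark TGANTCA, the motif bound by AP-1 factors, which reads alike on both strands. Gpnmb lies at chr6:49036268-49036567, Mmp12 at chr9:7347124-7347423 and Mmp13 at chr9:7272264-7272563, all on the plus strand.
Gpnmb: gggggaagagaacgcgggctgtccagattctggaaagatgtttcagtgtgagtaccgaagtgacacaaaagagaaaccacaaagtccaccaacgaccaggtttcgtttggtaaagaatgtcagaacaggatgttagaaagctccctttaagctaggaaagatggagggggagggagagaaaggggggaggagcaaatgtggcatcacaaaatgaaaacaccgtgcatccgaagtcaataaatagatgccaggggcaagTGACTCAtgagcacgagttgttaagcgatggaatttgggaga
Mmp12: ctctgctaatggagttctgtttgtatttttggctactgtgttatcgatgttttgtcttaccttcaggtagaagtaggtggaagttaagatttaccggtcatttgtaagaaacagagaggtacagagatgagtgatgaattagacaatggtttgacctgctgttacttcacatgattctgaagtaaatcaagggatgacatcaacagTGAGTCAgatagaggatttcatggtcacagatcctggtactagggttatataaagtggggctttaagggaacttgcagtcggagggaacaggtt
Mmp13: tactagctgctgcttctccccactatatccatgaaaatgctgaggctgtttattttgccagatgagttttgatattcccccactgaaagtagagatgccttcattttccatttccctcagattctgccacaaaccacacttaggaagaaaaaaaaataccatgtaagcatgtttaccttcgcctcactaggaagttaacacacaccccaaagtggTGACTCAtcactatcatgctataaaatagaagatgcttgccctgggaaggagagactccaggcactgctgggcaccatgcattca
The match lay at bases 8 to 14 from the start site in Gpnmb, at -44 to -38 in Mmp12 and at -35 to -29 in Mmp13. TGANTCA is found in 2565 of the 32851 promoters of this length, which is 7.81%. The other start site listed for Mmp12 had no match. Of the other given markers, Trem2 had a match at 1 of 1 start site and Spp1 at 0 of 2, and Lpl and Atp6v0d2 have no entry in the table. CACGTG and CATGTG, also read on both strands, were searched too and are found in 7.15% and 14.2% of promoters. Of these markers and Mmp13, CATGTG matched at 1 of 2 start sites of Mmp12 and at none of the others, and CACGTG at none. The motifs were chosen after the levels were known, and a match describes these letters only.

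Most genes of lipid handling and lysosomes lay within 2-fold in all libraries, with Lpl and a few others apart. Of 15 genes of lipid uptake and storage, 3 were past 2-fold lower and 1 higher in engineered MSC over PBS, and 3 lower and 1 higher in native MSC over PBS. Fabp5, a fatty acid-binding protein, was at 2557 CPM in engineered MSC, 2730.1 CPM in native MSC and 2542 CPM in PBS members, and Lgals3, a galectin of lipid-laden macrophages, at 3932 CPM in engineered MSC, 4545 CPM in native MSC and 4579 CPM in PBS members. Fabp4, another fatty acid carrier, was at 220.3 CPM in engineered MSC, 332 CPM in native MSC and 471 CPM in PBS members, 2.14-fold lower (2.02 to 2.26) in engineered MSC members than in PBS. Cd5l, a secreted protein of lipid-loaded and Kupffer macrophages that also served in the rule, was at 630.4 CPM in engineered MSC, 466 CPM in native MSC and 1518 CPM in PBS members. Its log2 ratio for engineered MSC over PBS was -0.45 after thinning to 2000 UMIs, against -1.27 in all members. Cd36, a scavenger receptor, was at 845 CPM in engineered MSC, 751 CPM in native MSC and 1223 CPM in PBS members.

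Of 13 genes of cholesterol efflux and LXR targets, 2 were higher and 1 lower past 2-fold in engineered MSC over PBS. The 2 higher were the apolipoprotein genes Apoc1 and Apoc4. Their log2 ratios ranged from 2.06 to 2.575 and from 2.445 to 3.877 over the alternative settings. The part of free hepatocyte RNA in them was not tested. Nr1h3, which encodes the oxysterol receptor LXRα, was at 80.6 CPM in engineered MSC, 64.8 CPM in native MSC and 240.4 CPM in PBS members, 2.98-fold lower (2.72 to 3.28) in engineered MSC and 3.71-fold lower (3.47 to 3.97) in native MSC members. Abca1, a cholesterol exporter, was at 615 CPM in engineered MSC, 439.9 CPM in native MSC and 956 CPM in PBS members. Apoe, the apolipoprotein that carries the exported lipid, was at 20091 CPM in engineered MSC, 20889 CPM in native MSC and 20689.8 CPM in PBS members. Of 14 genes of cholesterol synthesis, 4 were past 2-fold higher and none lower in engineered MSC over PBS, with a median of 0.50, and the median over native MSC was 0.80.

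Most lysosomal genes lay within 2-fold. Of 24 lysosomal proteases and hydrolases, none passed 2-fold in engineered MSC over PBS and 2, Acp5 and Ctsk, were lower in native MSC over PBS, with medians of -0.06 and -0.12. Acp5, an acid phosphatase of osteoclasts and macrophages, was at 211 CPM in engineered MSC, 175 CPM in native MSC and 402 CPM in PBS members. Among 16 genes of the lysosomal membrane and proton pump, 2 were lower in engineered MSC and 2 in native MSC. Atp6v0d2 was one of them, and the other was Cd63, a tetraspanin of late endosomes, at 691 CPM in engineered MSC, 661 CPM in native MSC and 1602 CPM in PBS members. Mitf, a factor of the MiT family that controls lysosomal genes and Gpnmb in other cells, was at 203 CPM in engineered MSC, 217 CPM in native MSC and 408 CPM in PBS members, and Pparg, a nuclear receptor for fatty acid derivatives, at 75.3 CPM in engineered MSC, 81.9 CPM in native MSC and 169 CPM in PBS members.

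Receptors for dead cells were mostly level, with a lower tail in both MSC livers. Of 19 efferocytosis genes, 3 were past 2-fold lower in engineered MSC over PBS and 4 in native MSC over PBS, and none was higher in either. Axl, a receptor tyrosine kinase that recognises bridged phosphatidylserine, was at 116 CPM in engineered MSC, 73.6 CPM in native MSC and 274 CPM in PBS members. Tgm2, a transglutaminase that assists uptake of dead cells, is not among these 19 genes and is counted below with alternative activation. It was at 251 CPM in engineered MSC, 188 CPM in native MSC and 828 CPM in PBS members, 3.30-fold lower (3.14 to 3.48) in engineered MSC and 4.41-fold lower (4.24 to 4.59) in native MSC members. Axl was less stable than Tgm2, since the log2 ratio of Axl for engineered MSC over PBS was -1.24 in all members and -0.07 after thinning to 2000 UMIs.

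Genes of alternative activation split. Of 12 measured, 4 were past 2-fold higher and 3 lower in engineered MSC over PBS, and 5 and 3 in native MSC over PBS. Ear2, an eosinophil-associated ribonuclease, was at 9.10 CPM in engineered MSC, 11.7 CPM in native MSC and 122 CPM in PBS members, 13.4-fold lower (10.3 to 17.8) in engineered MSC and 10.5-fold lower (9.01 to 12.2) in native MSC. Cd163, a scavenger receptor for haemoglobin, was at 73.3 CPM in engineered MSC, 39.4 CPM in native MSC and 8.56 CPM in PBS members, and Cbr2, a carbonyl reductase, at 55.8 CPM in engineered MSC, 53.5 CPM in native MSC and 10.0 CPM in PBS members. Chil3, a chitinase-like protein made by monocytes, was at 277 CPM in engineered MSC, 817 CPM in native MSC and 131 CPM in PBS members, but B cells of the same libraries had 36.8, 611 and 237 CPM, above the members in PBS.

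Among 10 inflammatory cytokines measured in engineered MSC over PBS, 2 were past 2-fold higher and 1 lower. Il1rn, the antagonist of the interleukin-1 receptor, was at 21 CPM in engineered MSC, 30.4 CPM in native MSC and 160.4 CPM in PBS members, 7.63-fold lower (6.40 to 9.18) in engineered MSC and 5.29-fold lower (4.81 to 5.83) in native MSC members. It was detected in 5.05% of engineered MSC, 8.0% of native MSC and 43.2% of PBS members after thinning to 5000 UMIs. Il1b, the cytokine it opposes, was at 62.6 CPM in engineered MSC, 255 CPM in native MSC and 123 CPM in PBS members, highest in native MSC and lowest in engineered MSC members. More chemokine genes were past 2-fold higher than lower in both MSC livers, 8 higher and 2 lower of 18 in engineered MSC over PBS, and 5 higher and 2 lower in native MSC over PBS. Ccl2, which draws CCR2-bearing monocytes, was at 691 CPM in engineered MSC, 730.4 CPM in native MSC and 315 CPM in PBS members, and Pf4 (platelet factor 4) at 1708 CPM in engineered MSC, 1642 CPM in native MSC and 569 CPM in PBS members. After thinning to 2000 UMIs, the engineered MSC over PBS log2 ratio of Ccl2 was 0.11 and that of Pf4 0.95, against 1.13 and 1.59 in all members. Of 13 growth factor and repair genes, 2 were lower and 1 higher in engineered MSC over PBS. Pdgfb, a growth factor for stellate cells, was at 7.45 CPM in engineered MSC, 3.39 CPM in native MSC and 45 CPM in PBS members, and Igf1, insulin-like growth factor 1, at 398 CPM in engineered MSC, 328 CPM in native MSC and 614 CPM in PBS members.

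Monocyte genes were higher in members of both MSC livers than in PBS members. Of 12 measured, 7 were past 2-fold higher and 0 lower in engineered MSC over PBS, with a median of 1.08, and 11 higher and 0 lower in native MSC over PBS, with a median of 1.92. F13a1, the coagulation factor XIII A chain, was at 397 CPM in engineered MSC, 579 CPM in native MSC and 85.6 CPM in PBS members and was detected in 58.1% of engineered MSC, 77.1% of native MSC and 22.8% of PBS members after thinning. Ccr2, the receptor for Ccl2, was at 73.8 CPM in engineered MSC, 173 CPM in native MSC and 70.2 CPM in PBS members. In B cells, F13a1 stood at 9.51, 111 and 37.9 CPM and Ccr2 at 21.4, 107 and 110.2 CPM in the engineered MSC, native MSC and PBS libraries. The PBS members' Ccr2 was thus below the B cells of their library, and no level was read from it. The same held for Ly6c2 in every library. Together, Ly6c2, Ccr2, Plac8, Chil3 and F13a1 summed to 2013 CPM in native MSC members and 2014 CPM in B cells of that library. In the engineered MSC library the sums were 1065 and 794 CPM. Plac8 was below the B cells in both, at 309 against 601 CPM in engineered MSC and 414 against 1062 CPM in native MSC. Plac8 had a UMI in 57.6% of engineered MSC and 50.8% of native MSC B cells, against 0.89% and 8.54% for F13a1. The B cell sums, of which Plac8 was the largest part, are therefore no measure of free RNA alone. The B cells were also shallower than members, so equal CPM does not mean that members stood at the level of free RNA. The part of free RNA in the list medians was not tested. Of 13 Kupffer cell genes, some of which the rule used, 4 were past 2-fold lower in engineered MSC and 7 in native MSC over PBS, and none was higher in either. After thinning to 2000 UMIs, the Kupffer list's median for engineered MSC over PBS was 0.03, against -0.71 in all members.

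Cell cycle genes were higher in both MSC livers. Of 16, 12 were past 2-fold higher in engineered MSC over PBS and 12 in native MSC over PBS, and none was lower in either. The medians were 1.61 and 1.74, and the engineered over native MSC median was -0.16. Mki67, a nuclear protein of dividing cells, was at 130.3 CPM in engineered MSC, 159 CPM in native MSC and 29.6 CPM in PBS members, and after thinning it was detected in 22.4% of engineered MSC, 22.4% of native MSC and 5.79% of PBS members. After thinning to 2000 UMIs and a new choice of members, the list median was 0.14 for engineered MSC over PBS and 1.06 for native MSC over PBS. In the MSC livers, members with a Mki67 UMI had less Gpnmb than those without, at 1123 against 1993 CPM in engineered MSC and 904 against 1518 CPM in native MSC members. In PBS members it was 2800.0 against 2421 CPM, with 93 cells holding a Mki67 UMI after thinning to 5000 UMIs. The cells were not scored for cycle phase.

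MHC class II genes present antigen to helper T cells. In engineered over native MSC, 3 of 7 were past 2-fold higher, with a median of 0.94. The medians were 0.32 for engineered MSC over PBS and -0.69 for native MSC over PBS. H2-Aa was at 309 CPM in engineered MSC, 128 CPM in native MSC and 248 CPM in PBS members, and Cd74, the invariant chain, at 472 CPM in engineered MSC, 247 CPM in native MSC and 459 CPM in PBS members. The summed H2-Aa of engineered MSC members rested on a part of the cells, since the median member had 0, 0 and 46.8 CPM in the engineered MSC, native MSC and PBS libraries. After thinning to 5000 UMIs it was detected in 20.9% of engineered MSC, 12.3% of native MSC and 34.2% of PBS members. In engineered MSC members with 3 to 5 Gpnmb UMIs it was at 818 CPM, and in those with over 10 at 228 CPM. Members held few B cell transcripts, with Cd79b at 6.62, 13.1 and 9.15 CPM in engineered MSC, native MSC and PBS members, and Cd79a at 0 by the rule. Alb, the albumin transcript of hepatocytes, stood at 679.5, 177 and 74.9 CPM in members and at 2570.1, 503 and 153 CPM in B cells of the engineered MSC, native MSC and PBS libraries. Its part in the results above was not tested.

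Several groups had few or no genes past 2-fold. Of all genes measured, 16.2% passed it in either direction in engineered MSC over PBS and 14.2% in native MSC over PBS. None of 10 genes of MHC class I presentation passed 2-fold in engineered MSC or native MSC over PBS. Of 14 interferon response genes, 1 passed in each of these comparisons, and among 13 genes of iron and haem 1 was higher in engineered MSC and 1 in native MSC. Genes that cell dissociation induces, a check on handling, had medians of 0.06 for engineered MSC over PBS and -0.04 for native MSC over PBS, and 0 of 16 and 2 of 16 passed 2-fold. Of 16 glycolysis genes 1 passed in engineered MSC and 1 in native MSC. Macrophage transcription factors were not among these groups. Of 16, 3 were lower in engineered MSC over PBS and 3 in native MSC over PBS, and none was higher. Of all genes, 4.91% and 6.73% were lower in these comparisons.

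Of 12 matrix and matricellular genes, the group that holds Spp1, 4 were past 2-fold higher and 0 lower in engineered MSC over PBS, and 5 higher and 2 lower in native MSC over PBS. The engineered MSC count holds Sparc and Col4a1, whose log2 ratios over PBS turned to -1.07 and -2.04 with the highest doublet scores removed. Without the few members rich in stellate transcripts, described below, they were -1.14 and -1.90. Fn1, fibronectin, was at 138 CPM in engineered MSC, 340.0 CPM in native MSC and 148 CPM in PBS members. Neither Spp1 nor Fn1 was past 2-fold in engineered MSC over PBS.

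Bcl2l1, which protects cells from death, was at 83.6 CPM in engineered MSC, 69.4 CPM in native MSC and 171 CPM in PBS members, 2.05-fold lower (1.86 to 2.25) in engineered MSC and 2.46-fold lower (2.31 to 2.64) in native MSC. It was one of 2 of the 12 p53 and cell death genes past 2-fold lower in engineered MSC over PBS, with 0 higher. Of 6 Fc gamma receptor genes 1 was higher in engineered MSC and 1 in native MSC. Of 14 genes for receptors of growth factors and cytokines, 2 were past 2-fold higher and 1 lower in native MSC over PBS. Il1r2, a decoy receptor for interleukin-1, was at 6.46 CPM in engineered MSC, 61.2 CPM in native MSC and 17.2 CPM in PBS members, and Tgfbr1, a receptor for TGF-beta, at 91.7 CPM in engineered MSC, 73.1 CPM in native MSC and 148 CPM in PBS members. Of 13 glutathione defence genes 2 were higher in engineered MSC over PBS, where 11.3% of all genes were higher. Gsta3, which hepatocytes also make, was at 171 CPM in engineered MSC, 41.6 CPM in native MSC and 9.42 CPM in PBS members. Of 14 genes of fatty acid oxidation and PPAR, 2 were higher and 2 lower in engineered MSC over PBS.

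Transcripts of other cells differed between libraries, and their part in the levels above was not tested. Hepatocyte markers (Alb, Apoa1, Ttr, Serpina1c and Fgb) summed to 1594 CPM in engineered MSC, 449 CPM in native MSC and 153 CPM in PBS members, and to 5057, 1243 and 489.6 CPM in B cells. Red cell markers summed to 655, 2486 and 4.51 CPM in members and to 3929, 16883 and 11.7 CPM in B cells. Neutrophil markers summed to 83.8, 1062 and 91.1 CPM in members and to 81.5, 2379 and 194 CPM in B cells. Past 2-fold higher in engineered MSC over PBS were 17 of 18 hepatocyte genes, and past 2-fold higher in native MSC over PBS were 10 of 11 neutrophil genes. In every library the members held less of these markers per UMI than the B cells did, except for neutrophil markers in engineered MSC members, which were about equal.

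**Figure D3:**
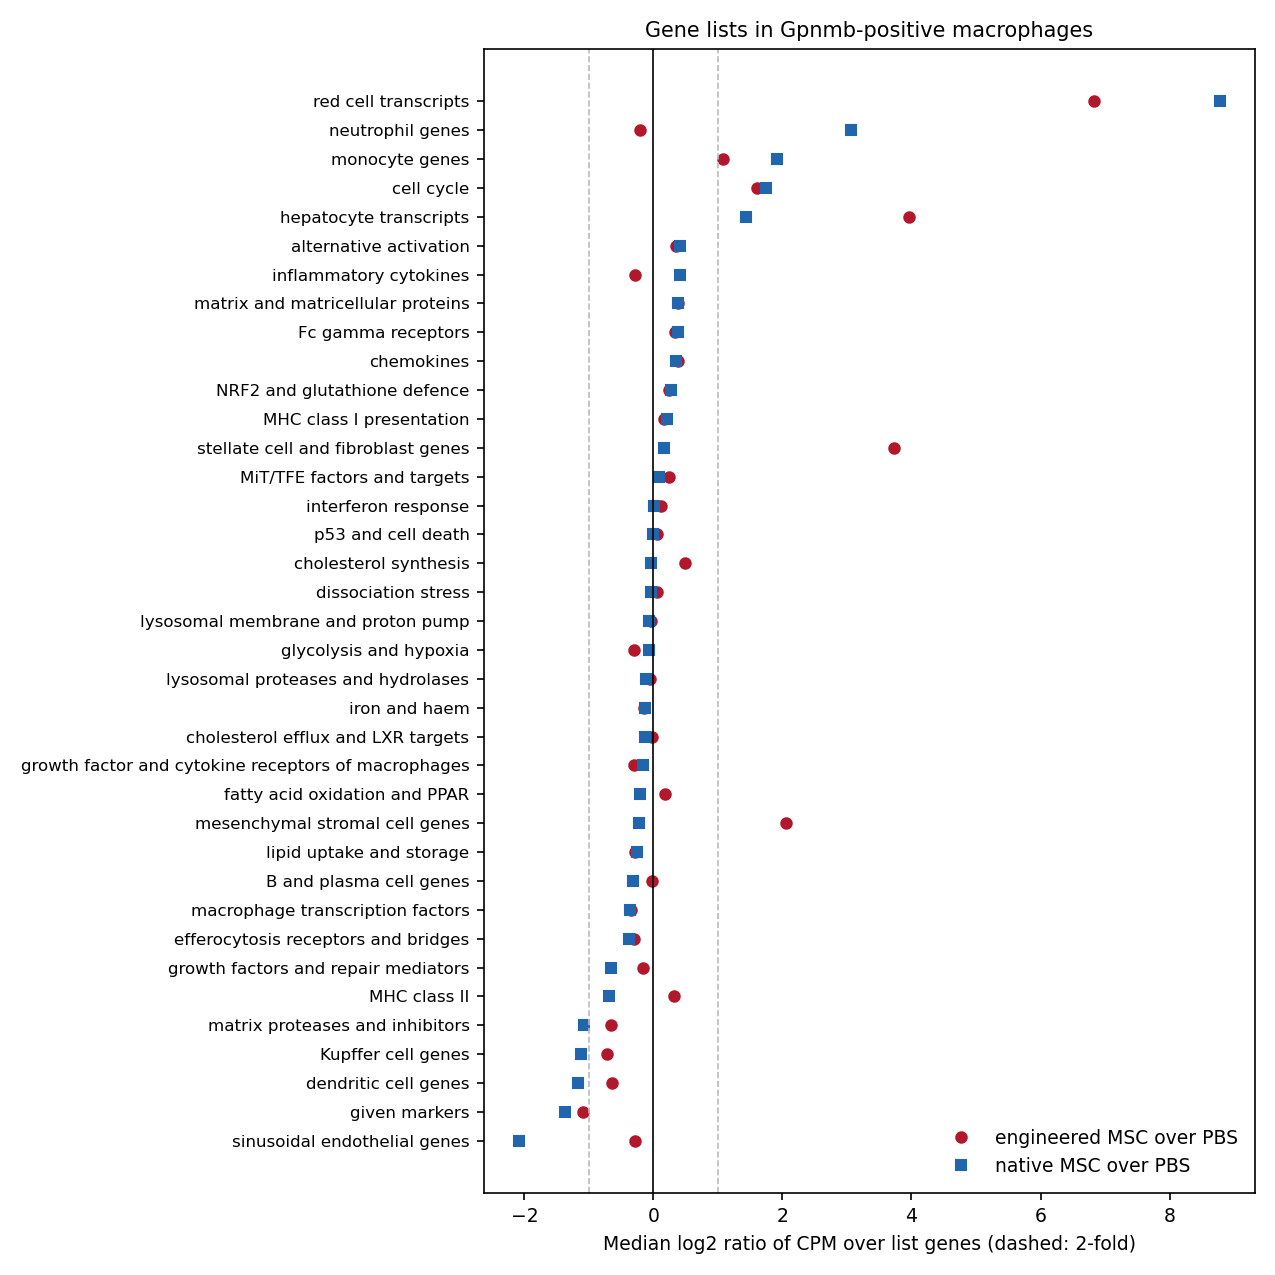
Median log2 ratio of gene lists in members, one point per list and comparison. Cell cycle and monocyte lists lie above 0 in both MSC libraries over PBS, matrix protease and Kupffer lists below it, and the lysosomal lists near it.

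The genes with the largest ratios are given for each pair. On the lower side of engineered MSC over PBS stood Mmp13, Mmp12, Ear2, Atp6v0d2 and Il1rn, and on that of native MSC over PBS Mmp12, Vcam1, Mmp13, Ear2 and Adcy3. Vcam1, an adhesion molecule for leukocytes, was at 66.4 CPM in engineered MSC, 13.4 CPM in native MSC and 203 CPM in PBS members. After thinning to 2000 UMIs, its log2 ratio for engineered MSC over PBS was -0.32, against -1.61 in all members. On the higher side of native MSC over PBS stood Ednrb, an endothelin receptor, at 69 CPM in engineered MSC, 79.8 CPM in native MSC and 6.54 CPM in PBS members, with the mitotic genes Cenpf, Ube2c, Cdc20 and Ccnb2. For engineered over native MSC, the lower side held Cd9, a tetraspanin, at 210.4 CPM in engineered MSC, 478 CPM in native MSC and 455 CPM in PBS members, with Spp1, H4c4, H1f4 and Clec4n.

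The higher side of engineered MSC over PBS held collagens and other transcripts of stellate cells, the liver's fibroblast-like cells, among them Col1a1, Col1a2, Col3a1 and Cxcl12. The higher side of engineered over native MSC held Col1a2, Col3a1, Col1a1, Rbms3 and Sox5. They came from few cells. Members with at least 5 UMIs over Dcn, Col1a1, Col3a1, Lrat and Reln numbered 12 in the engineered MSC, 6 in the native MSC and 7 in the PBS library, and held 98.4%, 85.2% and 83.7% of those UMIs. Of the 12 engineered MSC cells, 10 had doublet scores among those a filter would remove. With the highest doublet scores removed, Col1a1 had a log2 ratio of -1.74 for engineered MSC over PBS, against 4.10 in all members.

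Members varied along their own Gpnmb level. In bins below 1000 CPM, from 1000 to 3000 CPM and at 3000 CPM or more of Gpnmb, there were 123, 121 and 60 engineered MSC members, 431, 323 and 101 native MSC members, and 426, 742 and 526 PBS members. The top bin held 19.7% of engineered MSC, 11.8% of native MSC and 31.1% of PBS members. The bins are ranges of one score and not cell types.

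The other given markers all climbed across these bins of members within each library. Trem2 did so least, at 609, 809 and 943 CPM in engineered MSC, 768, 965 and 1151 CPM in native MSC and 743, 889.7 and 979 CPM in PBS members. From the lowest bin to the highest, Spp1 was at 1964, 5256 and 10632 CPM in engineered MSC, 4471, 11985 and 27486 CPM in native MSC and 1780.5, 2471 and 4825 CPM in PBS members. Lpl was at 740.3, 1224 and 2427 CPM in engineered MSC, 726, 1396 and 1968 CPM in native MSC and 2414, 3551 and 4681 CPM in PBS members. Mmp12 was at 24.4, 57.2 and 296 CPM in engineered MSC, 30.5, 76.4 and 226 CPM in native MSC and 503, 859 and 1645 CPM in PBS members. Among members with the highest Gpnmb, Mmp12 was still lower in both MSC libraries, at 296 CPM in engineered MSC, 226 CPM in native MSC and 1645 CPM in PBS members, and so was Lpl, at 2427 CPM in engineered MSC, 1968 CPM in native MSC and 4681 CPM in PBS members. Atp6v0d2 in that bin was at 105 CPM in engineered MSC, 286 CPM in native MSC and 408 CPM in PBS members, which left native MSC closer to PBS than engineered MSC. Cx3cr1, a fractalkine receptor of monocyte-derived cells, ran the other way, at 140.1, 60.5 and 12.1 CPM in engineered MSC, 119.5, 50.6 and 12 CPM in native MSC and 231, 149 and 42.7 CPM in PBS members.

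Spp1 was higher in members with an Atp6v0d2 UMI after thinning than in those without one, in each library. The 28 engineered MSC members with one had 10479 CPM of Spp1, against 3396 CPM without. The 79 native MSC members with one had 36967 CPM, against 6768 CPM without, and the 719 PBS members with one had 4282 CPM, against 1917 CPM without. They were split on a gene chosen after its values were seen.

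**Figure D4:**
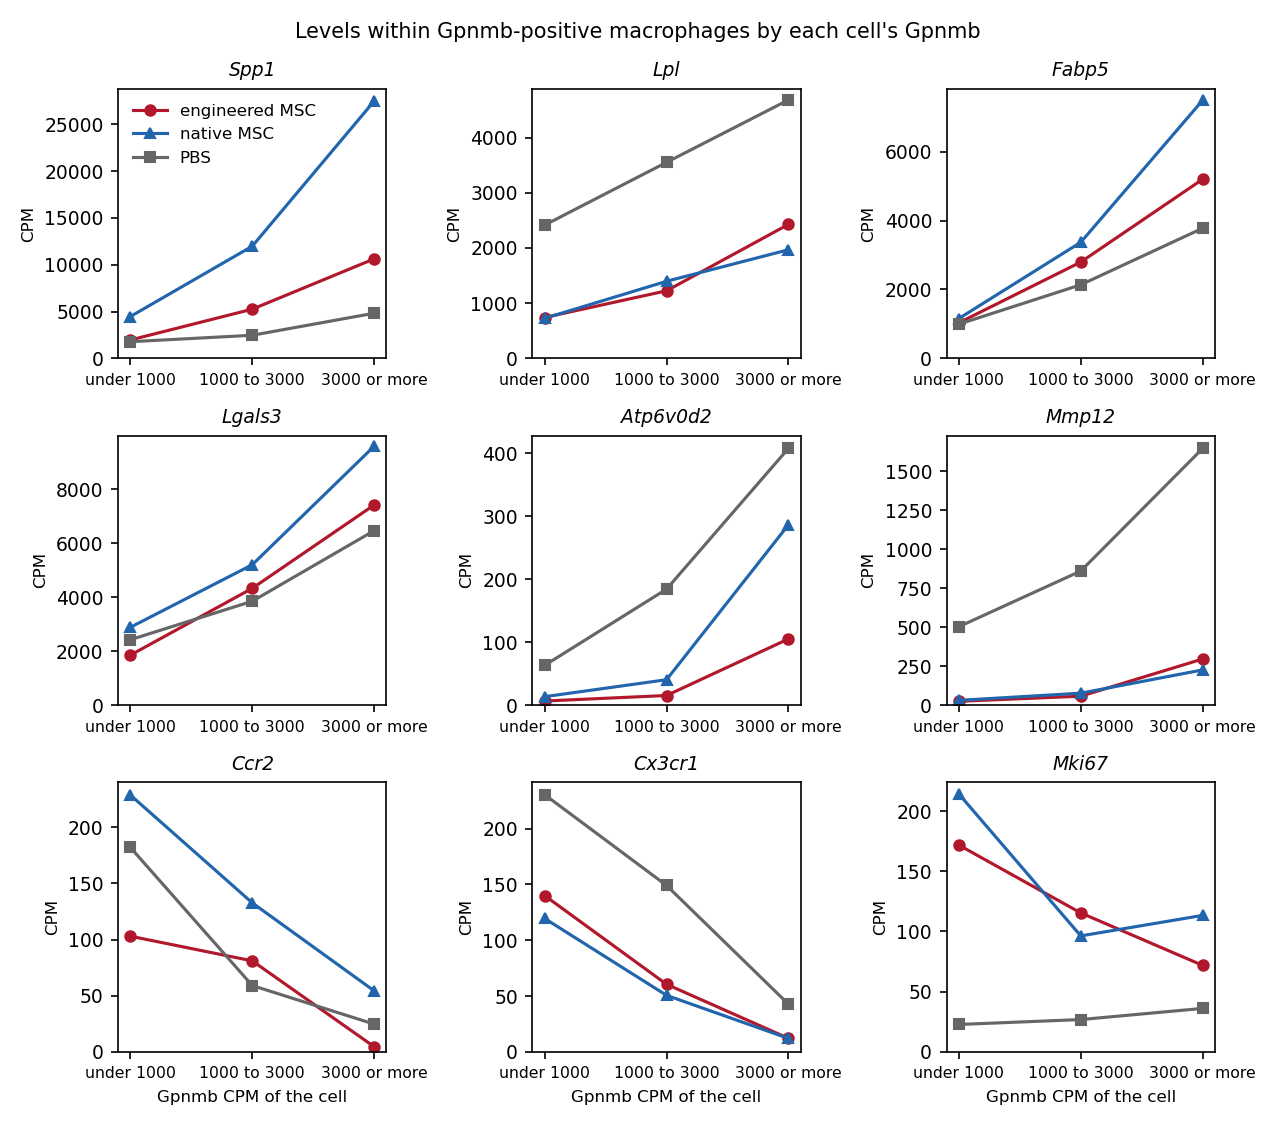
Levels of marker genes in members binned by Gpnmb, in CPM on linear axes, one line per library and 1 panel per gene. Spp1, Lpl, Mmp12 and Atp6v0d2 climb with Gpnmb in every library, and Mmp12 and Lpl stay lower in both MSC libraries than in PBS in each bin.

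Macrophages with 0 to 2 Gpnmb UMIs that met every other clause numbered 199 in the engineered MSC, 698 in the native MSC and 658 in the PBS library. Members were set against them within each library. Of 11398 genes measured in all libraries, 69 were past 2-fold higher and 156 lower in members in every one. Within single libraries the shares of genes past 2-fold were 2.58% higher and 6.16% lower in engineered MSC, 2.22% higher and 5.41% lower in native MSC and 6.34% higher and 11.6% lower in PBS. The split was made on a measured gene, so these counts describe it and are no test. In the values that follow, members come first and Gpnmb-low cells after "against". Fabp5 was at 2557 against 263 CPM in engineered MSC, 2730.1 against 283 CPM in native MSC and 2542 against 381 CPM in PBS. Syngr1, a synaptogyrin, was at 163 against 17.4 CPM in engineered MSC, 168 against 22.5 CPM in native MSC and 252 against 36.5 CPM in PBS. Saa3, an acute-phase apolipoprotein, was lower in members, at 8.77 against 515 CPM in engineered MSC, 129 against 4429 CPM in native MSC and 23.4 against 188 CPM in PBS. Slpi, a secreted protease inhibitor, was at 10.6 against 404 CPM in engineered MSC, 110.5 against 2802 CPM in native MSC and 33.4 against 201 CPM in PBS. H2-Aa was at 309 against 1462 CPM in engineered MSC, 128 against 328 CPM in native MSC and 248 against 1295 CPM in PBS, so that Gpnmb-low cells carried more MHC class II in every library. Il1b was at 62.6 against 432 CPM in engineered MSC, 255 against 711 CPM in native MSC and 123 against 747 CPM in PBS. Mmp12 did not set members apart in the engineered MSC library. Members there had 95.2 CPM, and cells with 0, 1 and 2 Gpnmb UMIs had 94.8, 120 and 87.6 CPM. Of the 6 given markers, Gpnmb included, 5 were past 2-fold higher in members in engineered MSC, 5 in native MSC and 6 in PBS.

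**Figure D5:**
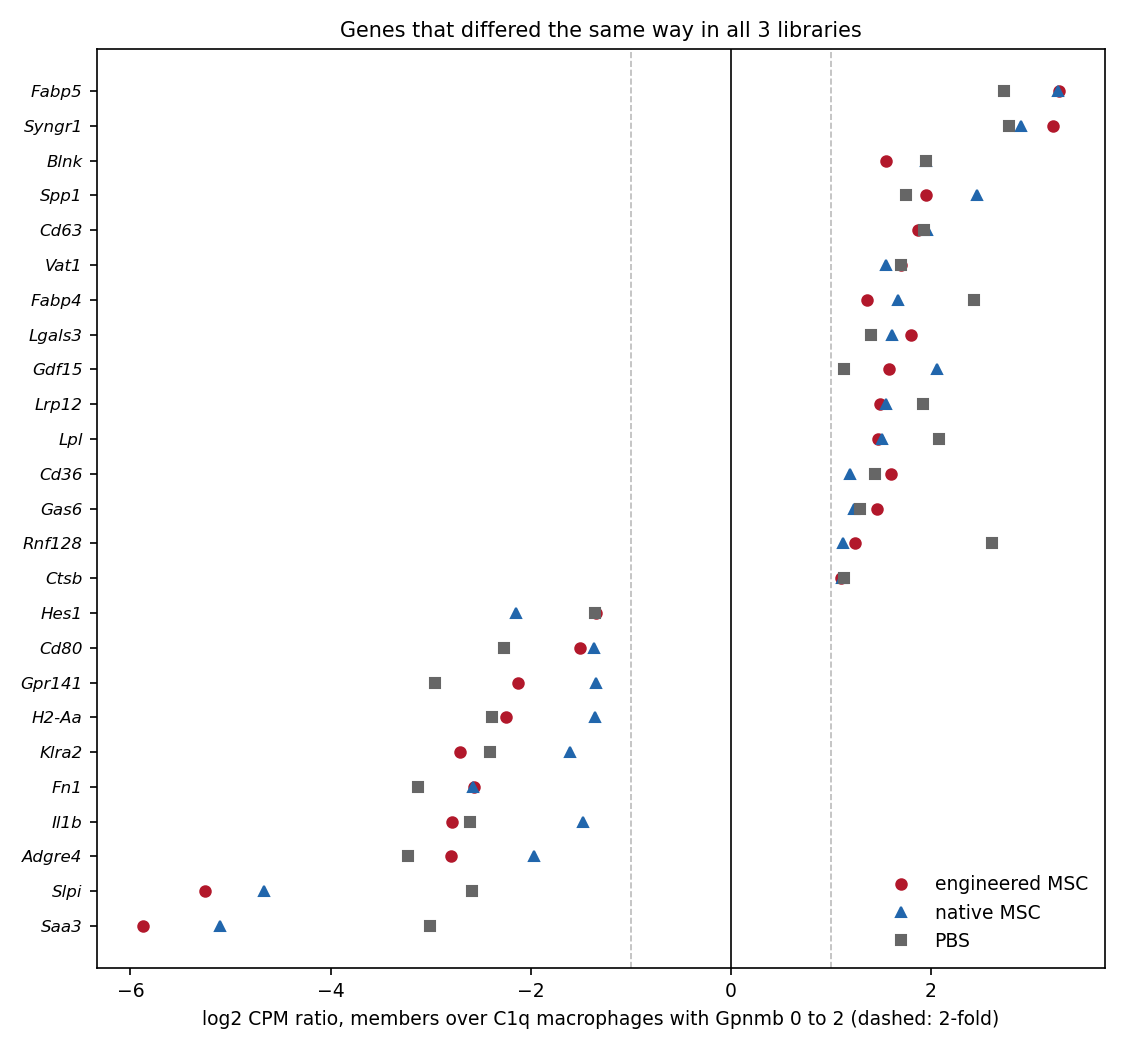
Genes in members over Gpnmb-low macrophages of the same library, as log2 ratios, one point per library. Fabp5 and Syngr1 lie above 0 and Saa3, Slpi, Il1b and H2-Aa below it in the engineered MSC, native MSC and PBS libraries.

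Set against cells of the Kupffer gate, members carried more F13a1 and Spp1. The gate held 254 engineered MSC, 48 native MSC and 667 PBS cells, of which 21 (8.27%), 11 (22.9%) and 345 (51.7%) had at least 3 Gpnmb UMIs. Past 2-fold in every library, 29 of 11131 genes were higher and 210 lower in members. Within single libraries the shares were 8.33% higher and 12.4% lower in engineered MSC, 8.76% higher and 10.7% lower in native MSC and 2.43% higher and 5.94% lower in PBS. F13a1 was at 397 against 45.9 CPM in engineered MSC, 579 against 194 CPM in native MSC and 85.6 against 33.2 CPM in PBS. Spp1 was at 5005 against 226 CPM in engineered MSC, 10001 against 1672 CPM in native MSC and 3243 against 1706 CPM in PBS. Marco, a scavenger receptor of Kupffer cells, was at 28.8 against 1060.1 CPM in engineered MSC, 43.5 against 1259 CPM in native MSC and 51.9 against 1266 CPM in PBS, and Slc40a1, the iron exporter ferroportin, at 509.5 against 2539 CPM in engineered MSC, 307 against 1229 CPM in native MSC and 335 against 979 CPM in PBS. Mmp12 was lower in members than in Kupffer-gate cells as well, at 95.2 against 263 CPM in engineered MSC, 71 against 929 CPM in native MSC and 1092 against 1991 CPM in PBS. Kupffer-gate cells of the PBS library also had the highest Mmp12 of the 3.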

How the data were processed

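Liver cells of 3 mice were measured by 10x single-cell RNA sequencing, 1 library per group. The matrices that the authors deposited hold raw counts, in UMIs for each gene and barcode, made with Cell Ranger 7.1.0 on GRCm39 per the submitters' processing notes and the file headers; library totals were 62564254 UMIs for engineered MSC, 84950721 for native MSC and 82247448 for PBS. Free RNA was not subtracted and may add transcripts of other cells to members.

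A barcode was kept when it had 200 or more genes and 500 or more UMIs, with no more than 20% of them mitochondrial. UMIs were summed over members of a library and scaled to CPM. Intervals are at 95%, exact Poisson for CPM, conditional binomial for their ratios, Clopper-Pearson for shares and of the log ratio for ratios of shares, and cover counting error only. Genes needed at least 20 UMIs in a pair. With 1 library per group no test was run. Scrublet scores (scanpy 1.11.5) gave doublet candidates at 0.8% per 1000 barcodes; these were kept, and removed in an alternative. B cells used as a gauge of free RNA had at least 3 Cd79a UMIs, at least 1 Ms4a1 UMI and under 10 C1q UMIs. Members were thinned to 5000 UMIs for shares of cells with a UMI, leaving out shallower cells, so that 277 engineered MSC, 838 native MSC and 1606 PBS members remained; thinning to 2000 UMIs before members were chosen left out 2073 engineered MSC, 1314 native MSC and 1761 PBS kept cells.

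The members and the 38 gene lists were chosen with earlier results of these data known. Named genes were the given markers, up to 4 members per list and comparison with at least 50 CPM in a library and the largest ratios, and the 5 genes each way with interval bounds furthest from equality, among genes with 50 or more UMIs and CPM where they were higher, at least 0.5 times the level of that library's other cells and a bound more than 1.5 times from equality. Apoe, Fabp5, Lgals3, Mmp9, Pdgfb and Ctsk were named for their role after their values were seen, and the Gpnmb bins with limits at 1000 and 3000 CPM were set then too. A gene that the rule named is not reported here. Intervals were tested on simulated Poisson counts, the model they are built on. Spread of UMIs between cells was left out, so that test cannot show how they cover it. Computing used Python 3.11.15, numpy 2.4.6, scipy 1.17.1 and pandas 2.3.3.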

Additional observations from a re-analysis of the deposited data

How the results depend on the processing

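Of 202 gene ratios past 2-fold among those named or listed, 186 kept their direction under every alternative in which they were measured, and 127 stayed past 2-fold. Of 27 list medians past it, 24 and 14 did. A ratio below the UMI minimum of an alternative was left out there and not counted as lost. The alternatives of at least 1 and at least 100 UMIs in the pair use the same sums, so no gene ratio could change in them. The engineered MSC over PBS ratio ranged from -3.57 to -2.77 on the log2 scale for Mmp12, and native MSC over PBS from -4.17 to -3.35. No paired analysis was possible because each group was 1 library.

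Thinning to 2000 UMIs also drops shallower cells and chooses members anew. The UMI minimums of the rule stay the same, so the new members need more Gpnmb and C1q per UMI. In the cells so thinned, the log2 ratios of the share of kept cells were -3.13 for engineered MSC over PBS, -2.36 for native MSC over PBS and -0.77 for engineered over native MSC (all cells: -2.42, -0.95 and -1.47). Those of the share of C1q macrophages were -0.90, -1.34 and 0.44 (all cells: -0.25, -0.39 and 0.13). Genes past 2-fold in the thinned cells were 506 higher and 1122 lower for engineered MSC over PBS. In all members they were 1543 higher and 671 lower, so the balance turned. For native MSC over PBS 401 were higher, against 1055 in all members, and for engineered over native MSC 227, against 1085. Shares of the genes measured were not computed for the thinned cells. Vsig4 turned to a log2 ratio of 0.0225 for engineered MSC over PBS. With Gpnmb of at least 2 or 5 UMIs, the native MSC over PBS log2 ratio of the share of C1q macrophages was -0.31 or -0.46.

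With at least 100 UMIs in a pair, 638 genes were higher and 284 lower for engineered MSC over PBS, 509 and 481 for native MSC over PBS, and 322 and 86 for engineered over native MSC, since fewer genes were counted. With at least 1 UMI they were 5588 and 1396, 3436 and 2356, and 3647 and 1394. Members with at least 1000 CPM of Gpnmb, an alternative chosen after seeing the data, gave 649 higher genes for engineered over native MSC.

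Stellate transcripts reversed when few cells left. With the highest doublet scores removed, 906 genes were higher for engineered MSC over PBS and 479 for engineered over native MSC. Log2 ratios for engineered MSC over PBS were then -0.93 for the stellate list, -2.63 for the mesenchymal stromal list, Col1a1 -1.74, Col1a2 -1.86, Col3a1 -0.79, Rbms3 -0.77, Sparc -1.07, Col4a1 -2.04. For engineered over native MSC they were -1.97 for the stellate list, Col1a1 -3.22, Col1a2 -2.94, Col3a1 -2.67, Cxcl12 -0.72, Rbms3 -1.66, Sox5 -1.28, Sparc -1.40, Col4a1 -1.25, Dcn -1.97. Without the members rich in stellate transcripts, also chosen after seeing the data, 1003 genes were higher for engineered MSC over PBS and 592 for engineered over native MSC. Engineered MSC over PBS was then Rbms3 -0.79, Sparc -1.14, Col4a1 -1.90, and engineered over native MSC -0.27 for the stellate list, Col1a1 -0.92, Col3a1 -0.18, Rbms3 -0.36. The causes of the changes with thinning were not tested.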

Other observations

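Members over macrophages with 0 to 2 Gpnmb UMIs had 7 of 7 MHC class II genes past 2-fold lower in engineered MSC, 5 of 7 in native MSC and 5 of 7 in PBS, and none higher in any, with median log2 ratios of -2.20, -1.21 and -2.38. None of 10 genes of MHC class I presentation passed 2-fold in any library. Of the genes of lipid uptake and storage, 6 of 15 were past 2-fold higher and 2 lower in engineered MSC, 6 higher and 2 lower in native MSC and 8 higher and 2 lower in PBS, with medians of 0.81, 0.68 and 1.12. Of all genes, 2.58% were higher and 6.16% lower in engineered MSC, 2.22% and 5.41% in native MSC, and 6.34% and 11.6% in PBS. The split was made on Gpnmb, so these counts describe it and are no test.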
